A study of Mus musculus with 8 samples.

Results

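The genes described are the chaperones, folding enzymes and proteasome subunits measured in mouse embryonic stem (ES) cells and in epiblast-like aggregates (ELA). Members were taken by symbol: heat shock proteins, J-domain proteins, the TRiC/CCT chaperonin, Bag, Stip1 and St13 co-chaperones, cyclophilins and Fkbp prolyl isomerases, prefoldins, protein disulfide isomerases, calnexin and calreticulin, every Psm subunit and Vcp. The rule used no measured value and found 64 of the 3160 genes of the table. RefSeq lists 178 protein-coding mouse genes whose symbols fit the rule, so most of the family lies outside this table, among them all 3 Hsp90 genes and all 5 prefoldin subunits. Counts below are over the 64 measured members.

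Chaperones bind proteins that are not yet folded or have lost their fold. Hsp70 proteins do so in cycles of ATP hydrolysis that J-domain proteins start and Bag proteins reset, the TRiC/CCT ring encloses actin, tubulin and other clients, and small heat shock proteins such as Hspb1 hold clients without ATP. The 26S proteasome, a 20S barrel capped by 19S particles, degrades proteins tagged with ubiquitin, and Vcp is an ATPase that pulls such proteins out of complexes and membranes. Many of these genes are transcribed at a high level in every cell, and some carry binding sites for the heat shock factor, the factors of the unfolded protein response or the Nrf proteins.

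ES cells were the line E14Tg2A (strain 129/Ola), grown on gelatin with serum and LIF and taken at 0 days. ELA were the same cells after 2 days as floating aggregates in a defined medium with N2 and B27 and without serum or LIF, and they stood for the primed epiblast. At each stage the total RNA of the cleared lysate (input) was sequenced beside RNA pulled down with an antibody to endogenous Rpl10a, a protein of the large ribosomal subunit, after cycloheximide had stalled the ribosomes (Rpl10a-IP). Each of the 4 groups held 2 replicates of 1 cell line, and nothing in the labels says that they came from separate cultures beyond the replicate number.

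The libraries held 159587 to 23483388 reads over the 3160 genes, and the 2 ELA input libraries were the shallowest, with 159587 and 410192. In these 2 libraries the least covered member had 4 and 9 reads. The study's methods describe ELA input replicate 1 as a library of low complexity and leave it out. Of 11 naive pluripotency markers 6 were measured, and all 6 were lower in ELA. Their summed normalised count was 19418 to 19867 in ES input and 2162.5 to 2283.8 in ELA input. Dnmt3b, the 1 measured epiblast marker of 6, was higher in ELA input by 2.62 on the log2 scale, and Nes, the 1 measured neural marker of 4, by 2.51. Of 3 measured pluripotency factors of both stages, Pou5f1 was lower by 1.18, Sall4 higher by 0.25 and Lin28a not called. No marker of primitive endoderm, mesoderm or fibroblasts was in the table.

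Short stretches upstream of annotated starts (RefSeq, GRCm38.p6) are shown for some of the members that carry the binding sequences of the stress pathways. Of those shown, 4, Hspb1, Hspe1, Hspd1 and Dnajb6, were among the members with lower counts in ELA. Other carriers of the heat shock element are named below. Capitals mark the match to the heat shock element in its 2-unit form, GAANNTTC, in its 3-unit form, which adds NN and a further GAA, or to the ER stress element, CCAAT and CCACG with 9 bases between them. Both strands were searched, and the 2-unit form lies inside the 3-unit form.
Hspb1, chr5:135887791-135887820, plus strand: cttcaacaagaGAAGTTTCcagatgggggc
Hspb1, chr5:135887811-135887840, plus strand: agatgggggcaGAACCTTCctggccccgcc
Hspe1, chr1:55088056-55088085, plus strand: ccgttctaGAACCTTCCGGAAggccccgcg
Hspd1, chr1:55088050-55088079, minus strand: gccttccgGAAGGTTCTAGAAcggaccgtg
Dnajb6, chr5:29735844-29735873, plus strand: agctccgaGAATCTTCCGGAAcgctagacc
Hspa5, chr2:34772020-34772049, plus strand: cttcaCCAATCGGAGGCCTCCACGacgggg
Canx, chr11:50325794-50325823, minus strand: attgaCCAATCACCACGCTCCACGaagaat
The Hspe1 and Hspd1 stretches overlap and are read from opposite strands. Their capitals share 1 element of the 2-unit form and run on from it in opposite directions, so they are not separate sites. Upstream windows were at hand for 56 of the 64 members. Of these, 3 held the 3-unit form (5.36%, against 0.531% of the genes in the table that had windows). The 2-unit form was held by 8 (14.3%, against 6.25%). A gene counted here if any of its windows matched. Of all 32851 mouse windows, taken singly, 0.603% and 7.86% matched. The 8 members with the 2-unit form are Hspb1, Hspe1, Hspd1, Dnajb6, Vcp, Fkbp4, Cct2 and Psmb5. Of these, 7 were lower in ELA input, where 70.3% of the 64 members and 35.8% of all genes were. Fkbp4 was at -0.23 on the log2 scale with an adjusted p of 0.0609 by limma. With a correction for transcript length and GC content the calls of Hspe1, Vcp and Psmb5 among the 7 were lost. The ER stress element was in 2 members, Hspa5 and Canx (3.57%, against 0.123% of genes in the table and 0.119% of all windows). The antioxidant response core TGACNNNGC was in 13 (23.2%, against 19% of genes in the table and 12.4% of all windows). A match describes the letters of the window and says nothing of whether a factor was bound.

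RNA of most measured members was lower in ELA than in ES cells, in both fractions. A gene is called here when its Benjamini-Hochberg adjusted p over all 3160 genes, from limma on log2(normalised count + 1), is under 0.05. Of the 64 members 47 were called in total RNA, where 70.2% of all genes were. The direction differed from that of the table: 45 members (70.3%) were lower and 2 were higher, against 35.8% and 34.5% of all genes. The members' median log2 change in total RNA was -0.53, and that of all genes was -0.02. In ribosome-bound RNA 57 members were called against 83.4% of all genes; 53 (82.8%) were lower, against 41.9% of all genes, and 4 were higher, against 41.6%. The median log2 change there was -0.78 for members and -0.01 for all genes, and past 2-fold 24 members were lower, where 14.1% of all genes were, and 2 were higher, where 15.4% were. In total RNA 7 members were lower past 2-fold, where 7.88% of all genes were and 18.4% in either direction. Normalised counts are relative to the other RNA of a library, and in cell lysates a lower count can come from fewer cells with the RNA or from less RNA per cell, which cannot be told apart. The members took 5.197 to 5.895% of the reads in the 4 ES libraries and 3.89 to 4.31% in the 4 ELA libraries, with no overlap. Each comparison was also fitted with a replicate block and a correction for transcript length and GC content, called the length and GC correction below. With it the members' median was -0.24 in total RNA and -0.27 in ribosome-bound RNA.

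**Figure D1:**
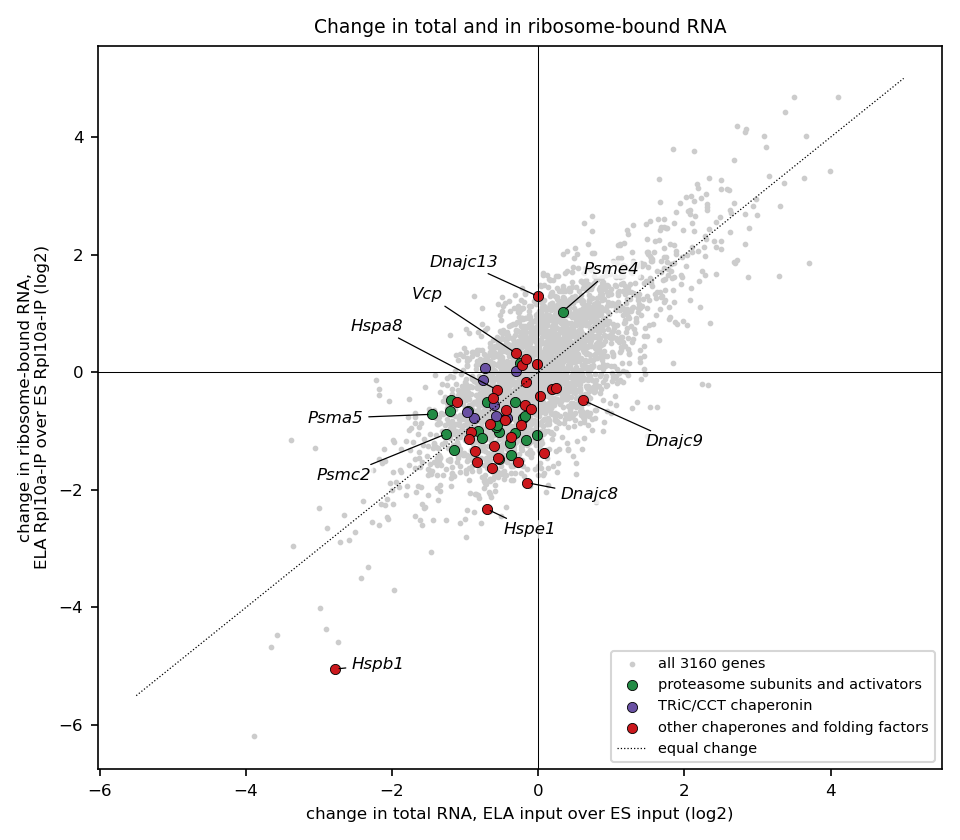
Log2 change of each of the 3160 genes (grey) and of the 64 members (coloured by class) from ES to ELA, in total RNA on the x axis and in ribosome-bound RNA on the y axis, with a dotted line where both are equal. The members lie mostly below 0 on both axes (medians -0.53 and -0.78), with Hspb1 alone at -2.78 and -5.05 and with Dnajc13 (1.29) and Psme4 (1.03) above 1 in ribosome-bound RNA.

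Hspb1 and Hspa8 differed in level and in change. Hspb1, the small heat shock protein, had 693 and 719.8 normalised counts in ES input and 821 and 820.2 in ES Rpl10a-IP. In ELA it had 109 and 95.4 in input and 28.4 and 20.3 in Rpl10a-IP. Every ELA library was thus below every ES library, and within ELA both Rpl10a-IP libraries were below both inputs. The ELA input values rest on 4 and 9 reads, which pooled give 99.1 normalised counts with a 95% exact Poisson interval of 52.8 to 169.5 (counting error only), while the ELA Rpl10a-IP values rest on 143 and 69 reads. In total RNA Hspb1 was lower in ELA by 2.78 on the log2 scale (6.88-fold, SE 0.15, adjusted p 1.23e-17, limma). The fit gives a gene 1 variance for all groups, so this SE does not carry the wider counting error of 4 and 9 reads. The same holds below for the enrichment of Hspb1 in ELA and for its change in enrichment. The adjusted p-values of these 3 results may be far too small. In ribosome-bound RNA it was lower by 5.05 (33.1-fold, SE 0.13, adjusted p 2.03e-81, limma), the second lowest log2 change of the 3160 genes, or -3.85 with the length and GC correction. Its ribosome enrichment, the Rpl10a-IP level over the input level, was not called in ES cells (0.23, adjusted p 0.148, limma) and was -2.04 on the log2 scale in ELA. The length and GC correction gave 0.67 in ES cells (adjusted p 2.83e-07, a call gained) and -0.69 in ELA (adjusted p 1.07e-06, limma). The difference between these, the change in ribosome enrichment, was -2.26 (SE 0.22, adjusted p 2.71e-10, limma), the seventh lowest of all genes, and -1.36 with the correction.

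Hspa8, the constitutive cytosolic Hsp70, had the highest count of the members in each library and a mean of 20963 normalised counts per kb of transcript. Its normalised counts were 61422 and 54105 in ES input, 55550 and 59485 in ES Rpl10a-IP, 36377 and 41701 in ELA input, and 45322 and 47514 in ELA Rpl10a-IP. All 4 ELA libraries were below all 4 ES libraries, and within ELA the Rpl10a-IP libraries were above the inputs. Hspa8 alone took 1.21 to 1.34% of the reads in the ES libraries and 0.838 to 1.01% in the ELA libraries. The fall was 0.57 on the log2 scale in total RNA (SE 0.096, adjusted p 3.31e-06, limma) and 0.30 in ribosome-bound RNA (SE 0.082, adjusted p 0.000594, limma). With the length and GC correction these changes were -0.27 (adjusted p 0.00301) and 0.01 (adjusted p 0.883, limma). Its ribosome enrichment was 0.01 in ES cells (not called) and 0.25 in ELA (adjusted p 0.018, limma), a call that was lost in 3 of 14 alternatives: without ELA input replicate 1 (0.17, adjusted p 0.122), without ELA Rpl10a-IP replicate 2 (0.23, adjusted p 0.0722) and with scaling by total reads (0.14, adjusted p 0.143). The change in enrichment, 0.26, was not called (adjusted p 0.105, limma) but was called without ELA input replicate 2 (0.36, adjusted p 0.0199) and with the length and GC correction (0.29, adjusted p 0.0414).

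Set beside the other 62 members, Hspb1 was outside their range in both changes of level and in the change of enrichment, and Hspa8 was inside it throughout. The other members ran from -1.45 (Psma5) to 0.62 (Dnajc9) in total RNA with a median of -0.49. In ribosome-bound RNA they ran from -2.32 (Hspe1) to 1.29 (Dnajc13) with a median of -0.78, and in the change of enrichment from -1.74 (Dnajc8) to 1.28 (Dnajc13) with a median of -0.30. The count of Hspb1 over that of Hspa8 was 0.0123 ± 0.0014 in ES input and 0.0143 ± 0.00071 in ES Rpl10a-IP. In ELA it was 0.00264 ± 0.0005 in input and 0.000526 ± 0.00014 in Rpl10a-IP (SD, n = 2 each). Both genes were named for this contrast with earlier results known, so these values are a description.

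**Figure D2:**
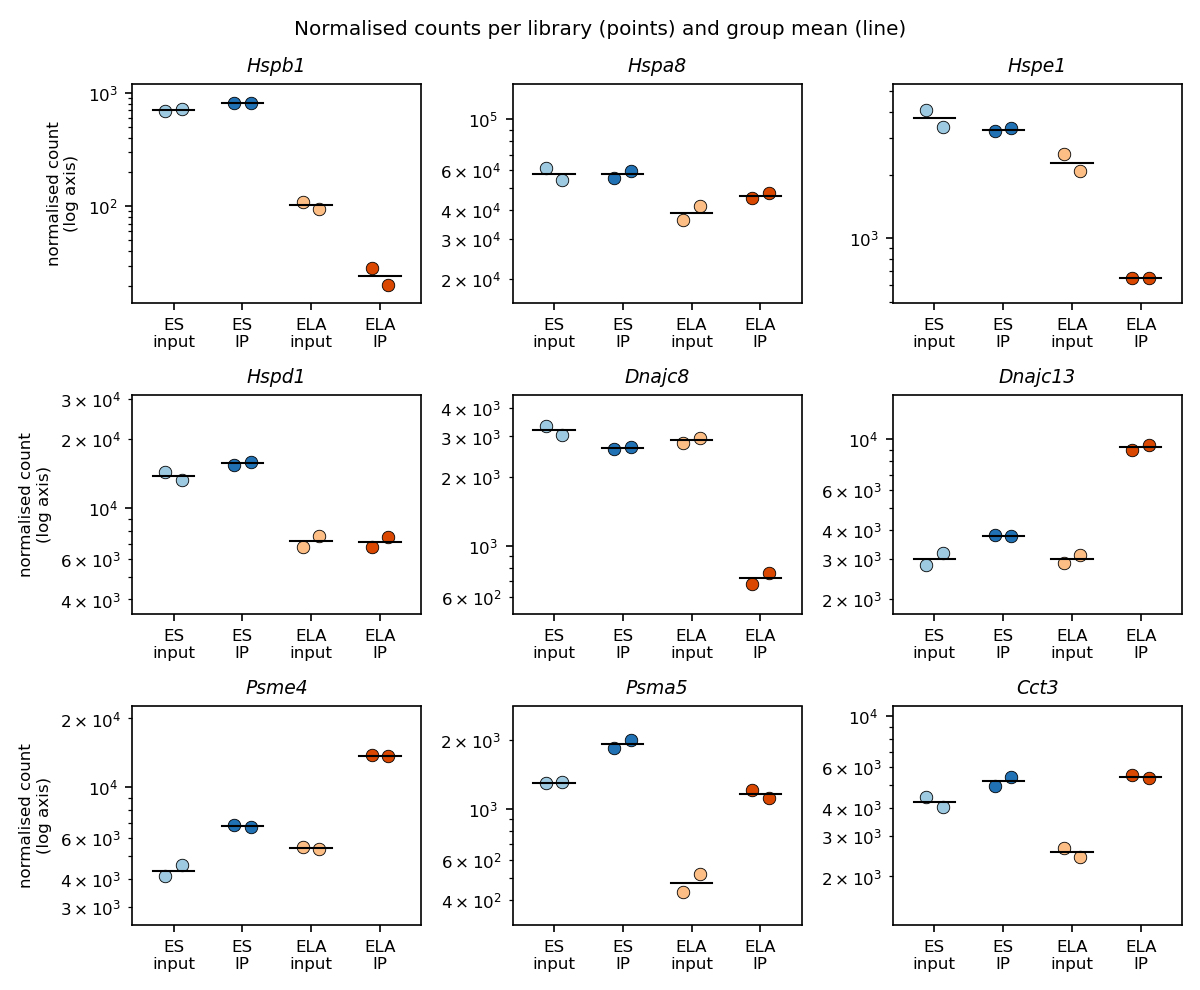
Normalised counts (log axis, its range set for each panel) of 9 members in each of the 8 libraries, with a point per library and a line at the mean of each group of 2. Hspb1 steps down from 693 or more in ES libraries to 28.4 and 20.3 in ELA Rpl10a-IP, Hspa8 stays between 36377 and 61422, and Dnajc13 rises to 8979 and 9430 in ELA Rpl10a-IP.

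In total RNA the decline was spread over nearly all role groups. The 8 TRiC/CCT subunits were all lower, from -0.97 (Cct7) to -0.30 (Tcp1), and so were the mitochondrial chaperonin pair, Hspd1 (-0.95) and Hspe1 (-0.71). Of the Hsp70 family 3 of 4 were lower, and Hspa5, the Hsp70 of the ER, was at -0.22 (adjusted p 0.0663, limma). The 20S core had 8 of 10 subunits lower and the 19S particle 9 of 11. Psma5, an alpha-ring subunit of the 20S core, had 1292 and 1309 normalised counts in ES input and 435 and 519 in ELA input, so that the groups were apart. Its log2 change was -1.45 (SE 0.11, adjusted p 2.4e-13, limma), or -0.89 with the length and GC correction. Psmc2, an ATPase of the 19S base, had 1355 and 1318 in ES input and 598 and 519 in ELA input, also apart, and its log2 change was -1.26 (SE 0.12, adjusted p 9.64e-12, limma), or -0.84 corrected. Prolyl isomerases (3 of 6 lower), J-domain proteins (4 of 10), co-chaperones (2 of 4) and the ER group of Canx, Pdia3 and Pdia4 (1 of 3) had fewer calls. Of the 47 calls in total RNA 15 were lost with the length and GC correction, and 8 were gained. Among those lost were Hspe1 (-0.06, adjusted p 0.587), Tcp1 (-0.04, adjusted p 0.74), 3 subunits of the 20S core, 3 of the 19S particle and all 3 proteasome activators, and the call of Tcp1 was also lost without ELA input replicate 1 (-0.16, adjusted p 0.147) and without ES input replicate 2 (-0.25, adjusted p 0.113).

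Dnajc9 and Psme4 were the 2 members that were higher in ELA input. Dnajc9, a J-domain protein that also binds histones, had 793 and 779.7 normalised counts in ES input and 1115 and 1304 in ELA input. The groups were apart, and the log2 change was 0.62 (SE 0.11, adjusted p 1.51e-05, limma), or 1.04 with the length and GC correction. Psme4, the activator known as PA200, had 4095 and 4574 in ES input and 5519 and 5396 in ELA input. Its log2 change was 0.33 (adjusted p 0.00308, limma), and the call was lost without ES input replicate 1 (0.25, adjusted p 0.0737), with the deposited size factors (0.24, adjusted p 0.0503) and with the length and GC correction (0.03, adjusted p 0.759). With that correction the split of members in total RNA was 7 higher and 33 lower, against 32.7% and 37.4% of all genes. The number higher was 4 without ELA input replicate 1 and 1 without ES input replicate 1.

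In ribosome-bound RNA the lower members included all 10 measured 20S subunits, 10 of 11 19S subunits, all 6 prolyl isomerases and all 4 co-chaperones. The 20S subunits ran from -1.07 (Psma4) to -0.51 (Psma1), and the 19S subunits from -1.40 (Psmc6) to 0.15 (Psmd2, not called). Corrected, they ran from -0.72 to 0.74 and from -0.89 to 0.41. Hspe1, the lid of the mitochondrial chaperonin, had 3221 and 3335 normalised counts in ES Rpl10a-IP and 649.7 and 649 in ELA Rpl10a-IP. Its groups were far apart next to the spread within them, and it was lower by 2.32 on the log2 scale (SE 0.090, adjusted p 2.16e-56, limma), and by 0.90 with the length and GC correction. Dnajc8, a J-domain protein found with the spliceosome, had 2636 and 2707 in ES Rpl10a-IP and 680.5 and 761 in ELA Rpl10a-IP, and was lower by 1.88 (3.68-fold, SE 0.090, adjusted p 8.48e-46, limma), or by 0.93 corrected. Its total RNA was not called (3349 and 3052 in ES input, 2800.3 and 2968 in ELA input, log2 change -0.15, adjusted p 0.213, limma), and with the length and GC correction it was called higher (0.31, adjusted p 0.00231). Stip1, which links Hsp70 to Hsp90, was lower by 1.52, with 5710.3 and 5948 in ES Rpl10a-IP and 2009 and 2023 in ELA Rpl10a-IP.

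The 4 members that were higher in ribosome-bound RNA were Dnajc13, Psme4, Vcp and Pdia4. Dnajc13, a J-domain protein of endosomes, had 3812 and 3768 normalised counts in ES Rpl10a-IP and 8979 and 9430 in ELA Rpl10a-IP. It was higher by 1.29 on the log2 scale (2.45-fold, SE 0.086, adjusted p 3.88e-31, limma), while its inputs overlapped (2832 and 3176 in ES, 2882 and 3116 in ELA). Psme4 had 6838 and 6723 in ES Rpl10a-IP and 13808 and 13720 in ELA Rpl10a-IP, a log2 change of 1.03 (2.05-fold, SE 0.085, adjusted p 9.62e-24, limma). Corrected for length and GC content, Dnajc13 was at 0.64 and Psme4 at 0.51. Vcp had 5365 and 5975 in ES Rpl10a-IP and 7246 and 6791 in ELA Rpl10a-IP, groups that were apart. Its log2 change was 0.32 (SE 0.086, adjusted p 0.000354, limma), and with the deposited size factors it was 0.20 (adjusted p 0.0531, limma). Pdia4, a disulfide isomerase of the ER, was higher by 0.23 (adjusted p 0.0162, limma) and by 0.63 with the correction. Its call was lost in 5 of 14 alternatives, with values from 0.10 (adjusted p 0.328, deposited size factors) to 0.21 (adjusted p 0.0655, all 8 libraries), among them those without ES Rpl10a-IP replicate 2 (0.19, adjusted p 0.122) and without ELA Rpl10a-IP replicate 2 (0.16, adjusted p 0.145). With the length and GC correction the split became 19 higher and 36 lower, against 39.1% and 38.7% of all genes, and 10 members called lower were called higher: Dnajc9, Ppib, Psma1, Psma5, Psma6, Psmb2, Psmb3, Psmb5, Psmb6 and Psmd14. Thus 7 of the 10 subunits of the 20S core were called lower without that correction and higher with it. A further 7 members lost their calls, Hspa8, Cct2, Cct6a, Cct8, Psma2, Psma4 and Psmc1.

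Ribosome enrichment in ES cells was modest throughout. Of the members 30 were called, where 39.2% of all genes were, with 22 higher (34.4%, against 20.5% of all genes) and 8 lower (12.5%, against 18.7%); the median was 0.13 for members and -0.01 for all genes, and past 2-fold there were 0 members, where 0.158% of all genes were. TRiC/CCT (6 of 8 higher) and the 20S core (7 of 10 higher) had none called lower. Psme4 was the most enriched, with 4095 and 4574 in input and 6838 and 6723 in Rpl10a-IP (0.66, SE 0.085, adjusted p 1.06e-10, limma). Cct8 had 6494 and 6757 in input and 9835 and 9932 in Rpl10a-IP (0.59, adjusted p 5.21e-09, limma), and Psma1 had 958 and 948 in input and 1375 and 1454 in Rpl10a-IP (0.58, adjusted p 1.49e-07, limma). In each of these 3 genes both Rpl10a-IP libraries were above both inputs. The least enriched was Fkbp1a, the prolyl isomerase that binds rapamycin, with 1312 and 1205 in input and 738 and 785 in Rpl10a-IP (-0.71, SE 0.097, adjusted p 8.83e-10, limma). Bag1, an exchange factor of Hsp70, had 1658 and 1451 in input and 1052 and 1079.5 in Rpl10a-IP (-0.53, adjusted p 2.26e-06, limma; -0.31 corrected). Dnajb12, a J-domain protein of the ER membrane, had 286 and 264 in input and 181 and 199.6 in Rpl10a-IP (-0.52, adjusted p 0.000322, limma). The count of members fell from 30 to 19 (13 higher, 6 lower) without ES Rpl10a-IP replicate 2 and to 21 with all 8 libraries in the fit. The split was 14 higher and 10 lower without ES input replicate 2, 20 and 5 without ES input replicate 1, and 19 and 4 without ES Rpl10a-IP replicate 1. The length and GC correction gave a split of 33 higher and 8 lower, against 21.4% and 19.3% of all genes, and a median of 0.21 for members.

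In ELA the members spread out further. Of the 64 members 49 were called against 74% of all genes, with 21 higher (32.8%, against 36.8%) and 28 lower (43.8%, against 37.2%), and past 2-fold 7 were higher (9.43% of all genes were) and 11 lower (11.9%). The median was -0.22 for members and -0.01 for all genes, and without ELA input replicate 1 it was -0.08 for members. All 4 Hsp70 genes, 6 of 8 TRiC/CCT subunits and Vcp were higher on ribosomes, whereas all 6 prolyl isomerases and all 4 co-chaperones were lower. After the length and GC correction 3 of the prolyl isomerases and 3 of the co-chaperones were lower: Ppib was called higher (0.36, adjusted p 0.000816), and Fkbp3 (-0.09), Ppid (0.05) and Bag6 (-0.12) were not called. Fkbp1a was again the lowest, with 1223 and 1442 in ELA input and 312 and 274 in ELA Rpl10a-IP (-2.18, 4.54-fold, SE 0.12, adjusted p 2.61e-17, limma). Dnajc8 was at -2.00 (adjusted p 1.61e-17, limma). At the other end were Dnajc13 (1.62, adjusted p 9.52e-16), Psme4 (1.33, adjusted p 4.37e-14) and Psma5, which had 435 and 519 in ELA input and 1208 and 1118 in ELA Rpl10a-IP (1.29, adjusted p 4.27e-12, limma). The split was 32 higher and 20 lower with the length and GC correction, against 37.9% and 36.1% of all genes, and the members' median turned to 0.20.

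The change in ribosome enrichment from ES to ELA was tested as the stage-by-fraction interaction. It was called in 39 members against 56.2% of all genes; 28 were lower (43.8%, against 27.7% of all genes) and 11 higher (17.2%, against 28.4%). The median was -0.30 for members and 0.01 for all genes, and past 2-fold 9 members were lower (9.05% of all genes were) and 1 was higher (6.33%, or 15.4% of all genes in either direction). With the length and GC correction the split was 22 higher and 19 lower, against 27.5% and 25.9% of all genes, and the members' median was 0.01, that of all genes. None of the 39 members called turned its sign in a call under any alternative, and 22 of them were called under every alternative that tested them. Hspb1 is among these and was tested in 13 alternatives in place of 14.

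The role groups differed in this measure. The 11 members whose enrichment rose were Dnajc13 (1.28), Cct3 (0.80), Psma5 (0.72), Psmd14 (0.70), Psme4 (0.69), Vcp (0.61), Cct5 (0.61), Hspa14 (0.59), Psma6 (0.53), Pdia4 and Psmd2 (0.39 each). Of these, 3 were less firm: the call was lost in 7 of 14 alternatives for Psmd2, in 5 for Pdia4 and in 5 for Psma6. For Psmd2 and Psma6 it was lost without either ES input, among others, and for Pdia4 without either ES Rpl10a-IP, among others. With the length and GC correction Psma6 was at 1.21. It was at 0.22 without ELA input replicate 1 (adjusted p 0.187, limma), and Psmd2 at 0.23 without ELA input replicate 2 (adjusted p 0.143, limma). Prolyl isomerases (5 of 6), co-chaperones (3 of 4) and J-domain proteins (6 of 10) were mostly lower. Among the less firm of these calls were those of Dnajc6, lost in 6 of 13 alternatives, Dnajb12, lost in 5 of 14, and Bag4, lost in 3 of 14. Dnajc8 gave Rpl10a-IP over input ratios of 0.787 and 0.887 in ES cells and of 0.243 and 0.256 in ELA (change -1.74, SE 0.15, adjusted p 3.83e-11, limma). Cct3, a TRiC/CCT subunit, gave ratios of 1.12 and 1.35 in ES cells and of 2.09 and 2.20 in ELA (change 0.80, SE 0.15, adjusted p 2.04e-05, limma). In both genes the ratios of the stages were apart. Of the other TRiC/CCT subunits Cct5 was higher, Cct4 was lower (-0.37, a call lost in 7 of 14 alternatives, -0.08 corrected) and 5 were not called, while in the proteasome the 20S core had 2 subunits higher, 3 lower and 5 not called, and the 19S particle had 2 higher, 4 lower and 5 not called. After the length and GC correction TRiC/CCT had 5 subunits higher and none lower, the 20S core 6 higher and 1 lower, and the 19S particle 3 higher and 2 lower, while 4 of 6 prolyl isomerases, 3 of 4 co-chaperones and 5 of 10 J-domain proteins were lower.

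**Figure D3:**
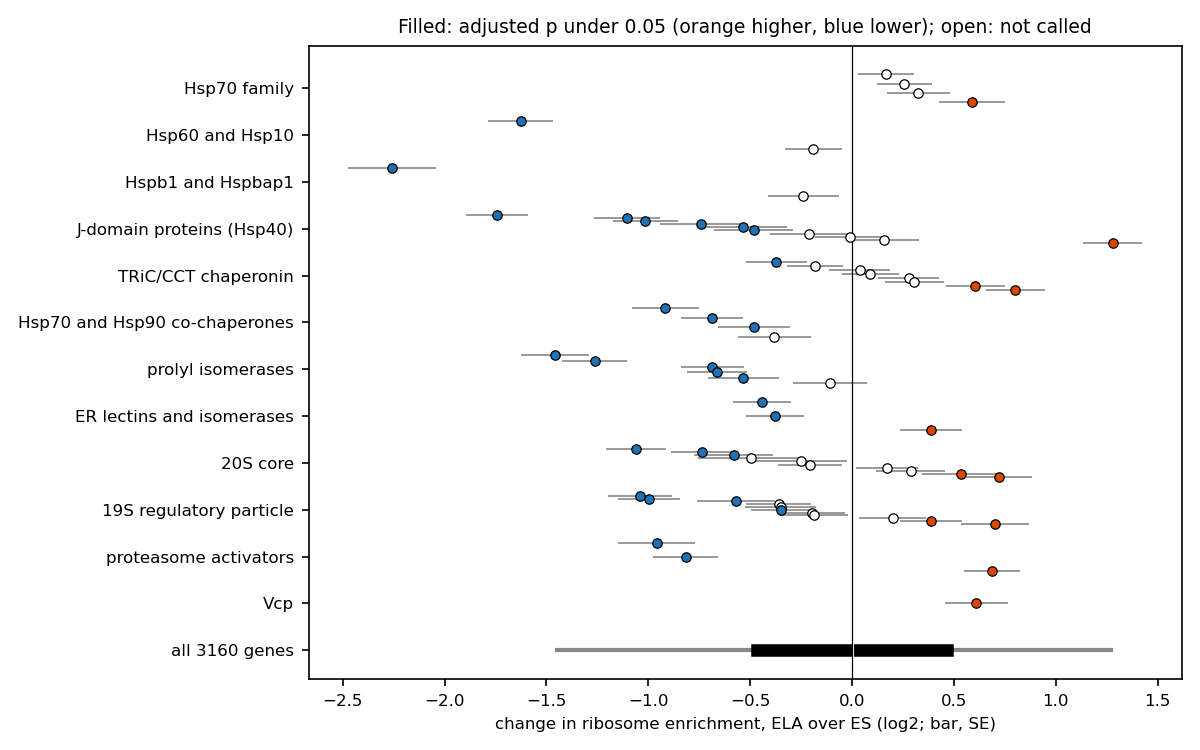
Change in ribosome enrichment from ES to ELA (log2, x axis) of each member, by role group, with a bar for the SE; filled points passed the test (orange higher, blue lower), open points did not, and the bottom row gives all 3160 genes (thick bar, middle 50%; thin bar, middle 95%). Hspb1 (-2.26), Dnajc8 (-1.74) and Hspe1 (-1.63) are the lowest and Dnajc13 (1.28) the highest.

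Subunits of 1 complex differed in the change of enrichment. Among the 20S subunits the change in enrichment ran from -1.06 (Psma4) to 0.72 (Psma5), both of the alpha ring. Psma4 had 2565 and 2614 normalised counts in ES input, 3026 and 3131 in ES Rpl10a-IP, 2637 and 2469.9 in ELA input and 1388 and 1524 in ELA Rpl10a-IP. Its total RNA was not called (-0.02), and its ELA Rpl10a-IP libraries were below those of every other group. In Psma5 the input fell while the Rpl10a-IP over input ratio went from 1.43 and 1.53 to 2.78 and 2.15. Among the 19S subunits the lowest was Psmc6 (-1.04) and the highest Psmd14 (0.70), the deubiquitinase of the lid. Under the length and GC correction the subunits stayed apart at other values: Psma4 was at -0.38 and Psma5 at 1.21, Psmd14 was at 1.33, and Psmc6 was no longer called (-0.18, adjusted p 0.266, limma). The total RNA of Psma4 was then called higher (0.44, adjusted p 1.39e-05, limma). The 3 proteasome activators also split, with Psme1 (-0.96) and Psme3 (-0.82) lower and Psme4 (0.69) higher; corrected, Psme1 was at -0.43.

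Levels per kb of the longest annotated transcript differed between the subunits of each complex. In ES input the TRiC/CCT subunits ran from 1548.5 (Cct4) to 5011 (Cct6a) normalised counts per kb, a range of 3.24-fold, and in ELA Rpl10a-IP from 1124 (Cct7) to 3872 (Tcp1), a range of 3.44-fold. The 20S subunits ran from 421 (Psmb5, the subunit with the chymotrypsin-like site) to 2223 (Psma4) in ES input, a range of 5.28-fold, and the range was 7.47-fold in ELA input. The 19S range was 5.48-fold in ES input, 6.12-fold in ES Rpl10a-IP, 5.22-fold in ELA input and 11.3-fold in ELA Rpl10a-IP, where Psmd3 had 134 and Psmd2 had 1510.4 normalised counts per kb. Psmd2, a ubiquitin receptor and the most abundant 19S subunit per kb in each group, had 3697 and 3708 normalised counts in ES input, 4044 and 4178 in ES Rpl10a-IP, 3480 and 2798 in ELA input, and 4760 and 4306 in ELA Rpl10a-IP. The longest annotated transcript need not be the one expressed, so the ranges also carry that choice of length. These ranges are descriptions with no test.

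**Figure D4:**
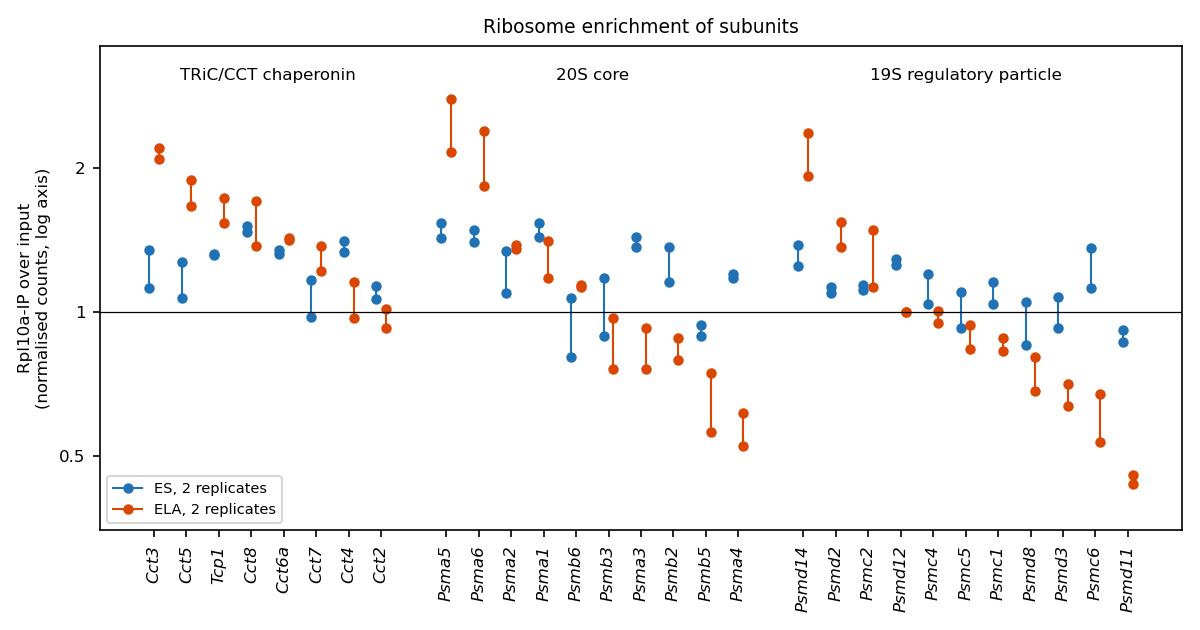
Rpl10a-IP over input ratio of normalised counts (log axis) of each measured subunit of the TRiC/CCT chaperonin, the 20S core and the 19S particle, with 2 replicates per stage joined by a line (ES blue, ELA orange). The ES ratios lie between 0.806 (Psmb6) and 1.53 (Psma1), while the ELA ratios run from 0.438 (Psmd11) to 2.78 (Psma5).

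The most abundant member of each remaining role group is given in full. Tcp1, the TRiC/CCT subunit with the largest mean count, had 6888 and 7417 normalised counts in ES input, 9056 and 9786 in ES Rpl10a-IP, 5329 and 6339 in ELA input, and 9209 and 9732 in ELA Rpl10a-IP. Its inputs were lower in ELA while the Rpl10a-IP libraries of the 2 stages overlapped. Canx, the calnexin of the ER, had 10709 and 9773 in ES input, 11840 and 11519 in ES Rpl10a-IP, 10794 and 10060 in ELA input, and 8065 and 9506 in ELA Rpl10a-IP. Its inputs overlapped, and its ELA Rpl10a-IP libraries were below every other library (change in enrichment -0.44, adjusted p 0.00883, limma). The call was lost with the length and GC correction (-0.21, adjusted p 0.16), without ES input replicate 2 (-0.38, adjusted p 0.0691) and without ELA Rpl10a-IP replicate 1 (-0.33, adjusted p 0.0772). Fkbp4, a prolyl isomerase that works with Hsp90, had 5263 and 4185 in ES input, 4088 and 4277 in ES Rpl10a-IP, 4051 and 3943 in ELA input, and 2378 and 2062 in ELA Rpl10a-IP. The latter pair lay below all others (change in enrichment -0.69, adjusted p 0.000374, limma). Stip1 had 5759 and 5155 in ES input and 3317 and 2777 in ELA input, apart and above its ELA Rpl10a-IP libraries. Hspbap1, a partner of Hspb1, had 551 and 507 in ES input, 580 and 552 in ES Rpl10a-IP, 353 and 318 in ELA input, and 299 and 309 in ELA Rpl10a-IP. It was lower in ELA in both fractions (-0.65 in total RNA and -0.88 in ribosome-bound RNA), and its change in enrichment was not called (-0.24, adjusted p 0.247, limma).

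The mitochondrial chaperonin pair came apart on ribosomes. Hspd1, the barrel (Hsp60), had 14433 and 13319 normalised counts in ES input, 15497 and 15915 in ES Rpl10a-IP, 6797 and 7537 in ELA input and 6756 and 7467 in ELA Rpl10a-IP. Its ELA libraries were all below its ES libraries, and the inputs and Rpl10a-IP of ELA overlapped. Hspe1, the lid (Hsp10), had 4085 and 3393 in ES input and 2501 and 2078 in ELA input. The ratio of Hspe1 to Hspd1 was 0.269 ± 0.020 in ES input, 0.209 ± 0.0012 in ES Rpl10a-IP, 0.322 ± 0.065 in ELA input and 0.0915 ± 0.0066 in ELA Rpl10a-IP (SD, n = 2 each). The change in enrichment was -1.63 for Hspe1 (SE 0.16, adjusted p 4.55e-10, limma) and -0.19 for Hspd1, which was not called (adjusted p 0.251, limma). The annotated genes overlap on opposite strands at chr1:55088148-55088243, and without a stated strand reads from that stretch cannot be told apart. Transcripts of Hspe1 are short, 0.774 kb against 2.42 kb for Hspd1, and with the length and GC correction the change of Hspe1 was -0.83 (adjusted p 1.39e-08, limma).

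Transcript length moved with these changes. The members' longest transcripts had a median of 2.18 kb, against 3.69 kb over the 3119 genes with a length. Hspb1 measured 0.93 kb, Hspa8 2.39 kb and Dnajc13, the longest member, 7.70 kb. In 4 bins of 16 members each from short to long, the median change in ribosome enrichment was -0.56, -0.35, -0.20 and -0.06. Across the 64 members Pearson's r with log2 length was 0.375 for the change in enrichment and 0.503 for ribosome-bound RNA, and across the 3119 genes it was 0.477 and 0.580; genes within the same libraries are not independent replicates. With the length and GC correction Hspb1 was at -1.36 in the change of enrichment and at -3.85 in ribosome-bound RNA, Dnajc8 at -1.24 and -0.93, and Dnajc13 at 0.91 and 0.64. The part of length in the results was not tested beyond this correction.

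**Figure D5:**
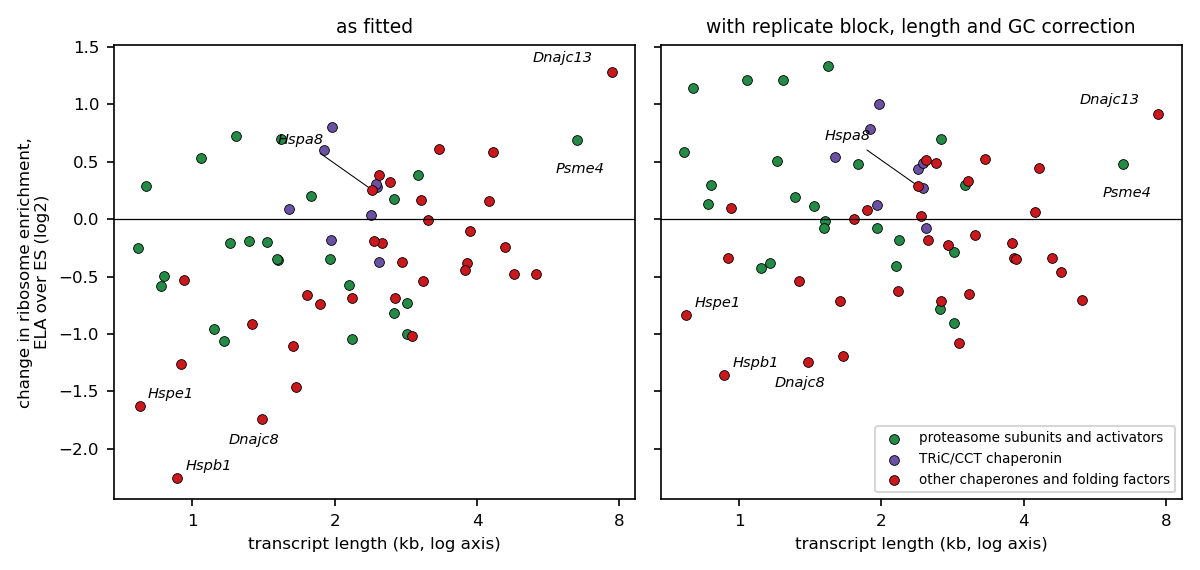
Change in ribosome enrichment from ES to ELA (log2, y axis) against transcript length in kb (log x axis) for the 64 members, as fitted (left) and with a replicate block and a correction for length and GC content (right). Hspb1 moves from -2.26 to -1.36 and the members' median from -0.30 to 0.01, while Dnajc13 goes from the highest member (1.28) to the sixth highest (0.91), below Psmd14 (1.33), Psma5, Psma6, Psmb6 and Cct3.

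Other proteostasis genes outside the symbol rule were also mostly lower in ribosome-bound RNA. Of 64 listed genes 29 were in the table; 20 were lower (69.0%, against 41.9% of all genes) and 7 higher (24.1%, against 41.6%) in ribosome-bound RNA. In total RNA 13 were lower (44.8%, against 35.8%) and 4 higher (13.8%, against 34.5%), and in the change of enrichment 14 were lower (48.3%, against 27.7%) and 6 higher (20.7%, against 28.4%). The shares lower with the length and GC correction were 58.6%, 44.8% and 34.5%, against 38.7%, 37.4% and 25.9% of all genes. Naca and Btf3, the partners in the nascent polypeptide complex that sits at the ribosomal exit tunnel, were lower in ribosome-bound RNA by 1.75 and 1.79 on the log2 scale, without the length and GC correction. Ubqln2, which carries ubiquitylated proteins to the proteasome, was higher in total RNA by 2.24 and not called in ribosome-bound RNA (-0.20, adjusted p 0.0863, limma). Uggt1, the folding sensor of the calnexin cycle, was higher in ribosome-bound RNA by 0.98. Pomp, which assembles the 20S core, was lower by 1.49, and Nfe2l1, the transcription factor of proteasome genes, was lower by 0.41.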

How the data were processed

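RNA was measured in 8 libraries, with 2 replicates of input and 2 of Rpl10a-IP at each stage. The source label of both second inputs carries replicate number 1, whereas their titles and descriptions give 2, which was used. According to the methods, the authors depleted ribosomal RNA, mapped reads to the mm10 transcriptome with TopHat2 (at most 2 hits and 2 mismatches, repeats left out), counted them per gene with htseq-count and divided by DESeq2 size factors. The deposited per-library values are this size-factor signal. Tool versions and the counting strand are not given in the sources used here. Overlapping genes, and genes with processed copies such as Hspa8, Hspe1 and Hspd1, are therefore uncertain. The deposited table was filtered: the larger mean input count is at least 50.022, and the SD of the 2 ratios over their mean is at most 0.19984 in ELA and 0.19952 in ES. Genes with disagreeing replicates are thus absent, so adjusted p-values may be understated and the numbers of calls overstated. The 26 further columns (means, SDs, ratios and fold changes) were not used.

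Reads were read back from the deposited values (100% of values whole within 0.01 reads). The reads were scaled by trimmed means of M values (30% and 5% trimmed), which gave the normalised counts printed above. To log2(normalised count + 1) limma 3.58.1 (R 4.3.3, lmFit, eBayes with trend) was fitted with 1 coefficient per group, which understates changes of low genes. In ELA input the added 1, and the alternative of 5, are worth less than 1 read (scaling factors 0.0368 and 0.0943). That alternative therefore tests little there. ES ribosome enrichment and the change in ribosome-bound RNA used 7 libraries, without ELA input replicate 1 as in the methods. The other comparisons used all 8, so that ELA input kept 2 replicates, with fits without that library as alternatives. P-values were adjusted (Benjamini-Hochberg) over 3160 genes and measure the spread between these samples, which may be technical. Very small ones rest on a variance shared between genes (prior degrees of freedom 154.61 and 30.738).

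Transcript length and GC content were those of the longest protein-coding GENCODE transcript of the symbol (3119 genes, all 64 members); no coordinate was taken from that annotation. Coordinates and upstream windows are RefSeq GRCm38.p6. The members, role groups and lists were chosen with earlier results of these data known. Values in every library are given for Hspb1, Hspa8, up to 3 members with the largest rise and fall past the threshold with groups apart in each comparison, and the most abundant member of each role group. Count models (edgeR and DESeq2), planned as alternatives, were not run on the reads that were read back, so no count-based test stands beside the limma calls. The scaling and the unblocked fit were tested on simulated data for every comparison except ELA ribosome enrichment and without the blocked or corrected fits. The simulated data had few changed genes, as many up as down, and neither a length trend nor the filter of the deposited table. They therefore say little about the calls in these data, and their outcome is not given here. Alternatives were other scalings, a pseudocount of 5, at least 10 reads in every library, all 8 libraries where 7 were used, each library left out, a replicate block, and the block with a length and GC correction.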

Additional observations from a re-analysis of the deposited data

Results flagged for a closer look

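The effect of the Rpl10a pull-down differed between ES cells and ELA, by the test of the stage-by-fraction interaction (limma, adjusted over 3160 genes), in 39 of the 64 members, where 56.2% of all genes were called. The members named for the size of this difference were Hspb1 (-2.26 on the log2 scale), Dnajc8 (-1.74) and Hspe1 (-1.63), whose enrichment was lower in ELA, and Dnajc13 (1.28), Cct3 (0.80) and Psma5 (0.72), whose enrichment was higher. For Hspb1 the ELA inputs held 4 and 9 reads.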

How the results depend on the processing

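Counts of members called stayed within 1.5 times the reported ones under every alternative run, with 1 exception: 19 in place of 30 in ES ribosome enrichment without ES Rpl10a-IP replicate 2. Leaving out each library in turn gave 19 to 31 calls in ES enrichment, 44 to 55 in ELA enrichment, 36 to 53 in total RNA, 54 to 57 in ribosome-bound RNA and 29 to 43 in the change of enrichment. Without ELA input replicate 1 the 3 comparisons fitted on 8 libraries gave 45 calls in ELA enrichment, 53 in total RNA and 38 in the change of enrichment. With all 8 libraries ES enrichment had 21 members called, and 762 in place of 1239 of all genes (734 to 1332 with each library left out); ribosome-bound RNA had 55 members called. With the replicate number as a block (replicate block) the calls were 30, 52, 49, 57 and 44. By the methods each input was a part of the lysate of a pull-down. Labels do not say that a number marks such a shared lysate, and those of the second inputs disagree on it. Deviations of same-numbered samples correlated at 0.170 for ES input with ES Rpl10a-IP, 0.504 for ELA input with ELA Rpl10a-IP, 0.153 between inputs and -0.025 between Rpl10a-IPs. The filter of the deposited table kept genes whose same-numbered ratios agree, which favours genes whose input and Rpl10a-IP deviate together. The values for input with Rpl10a-IP therefore cannot show whether a number marks a shared lysate. The replicate block, combined with correction for length and GC content, turned Hspa8 in ribosome-bound RNA to 0.011 (adjusted p 0.883, limma) and moved the splits given beside each comparison; the cause was not tested beyond the correction itself. Called under every alternative that tested them were 16 of 30 members in ES enrichment, 35 of 49 in ELA enrichment, 29 of 47 in total RNA, 46 of 57 in ribosome-bound RNA and 22 of 39 in the change of enrichment. These counts take no account of direction. The 46 include the 10 members called lower as fitted and higher with the length and GC correction, and the 35 include Ppib, which turned likewise. Scaling by total reads moved the median of all genes in ELA enrichment to -0.12, with 20 members higher and 33 lower. The deposited size factors moved it to -0.14 in ribosome-bound RNA (2 higher, 55 lower) and to -0.12 in total RNA (1 higher, 51 lower). For ribosome enrichment these size factors put the median of all genes at 4.055 in ES cells and 4.049 in ELA, and this shift was subtracted before members were counted, a step chosen after seeing the data; the planned count without it was not run. The edgeR and DESeq2 alternatives were not run. Depth limits Hspb1 most: with at least 10 reads in every library it was not tested. Under that limit Dnajb9 and Dnajc6 were not tested either in the 3 comparisons fitted on 8 libraries.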
